A study of Mus musculus with 11 samples.

Results

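*Rnasek* and 9 genes of the vacuolar-type proton ATPase (V-ATPase) were followed in single 8-cell stage mouse embryos that had or lacked a functional *Prdm10*. They were matched by symbol to the gene identifiers of the deposited tables, and all 10 were among the 54146 genes in them. The 10 genes were chosen with their values in mutant and control embryos already known, and above all for the level of *Rnasek*. Differences of these 10 genes between mutants and controls, overall or within batches, are therefore given as a description, without a test. Tests were kept for differences between the library batches, the levels of related subunits within embryos, and other genes of the same pathway. These did not enter the choice of the 10 genes. The lists of other genes were also drawn up with earlier results of these data known. Their tests are therefore not shown to be independent of those results.

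The libraries came from 11 C57BL/6 embryos at embryonic day 2.5, each made from 1 whole embryo. The 5 mutant embryos carried the *Prdm10* Δ allele, which lacks exon 5, on both chromosomes (Δ/Δ). The 6 control embryos were +/+ or Δ/+ and were not separated further, so heterozygotes stood among the controls. Genotypes were assigned, per the study's methods, from quantitative PCR for exon 5 in the amplified cDNA. Batch 1 (16 cycles of PCR pre-amplification) held 3 controls and 2 mutants, and batch 2 (13 cycles) held 3 controls and 3 mutants, so cycle number and batch cannot be told apart. PRDM10 is a zinc finger protein that binds DNA.

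Summed expected counts per library ranged from 3534735 to 8265840, and 15021 to 16482 genes had a count above 0. Of 10 early embryo markers, 8 were above 0 in every embryo, with summed levels of 4928 to 6289 TPM (RSEM's level per gene, corrected for gene length and library total) in controls and 5117 to 5973 TPM in mutants. Most of that sum was *Dppa3*, at 4240 to 5987 TPM in controls and 4549 to 5505 in mutants, and without it the markers summed to 247 to 688 and 377 to 1011 TPM. Of the 8 early embryo markers tested, 1 was called between the groups (of all genes, 1.45% were), and 5 had an unadjusted p under 0.05 (11.9% of all genes), with log2 fold changes over the 8 from -1.05 to 0.90. The called gene was *Klf5*, which was higher in mutants (log2 fold change 0.84 ± 0.14, SE, DESeq2 adjusted p = 1.07e-06, edgeR adjusted p = 0.0073). Of 7 cumulus and granulosa cell markers, *Has2*, *Ptx3* and *Foxl2* were at 0 in every embryo, and the summed level was at most 0.47 TPM in controls and 3.08 TPM in mutants. Oviduct epithelium markers summed to 0 to 24.2 TPM in controls and 0 to 31.9 TPM in mutants, and blood markers to 1.48 to 33.4 and 1.12 to 9.62 TPM. *Prdm10* itself had a normalised count of 124 to 381 (median 237) in controls and of 104, 120, 159, 169 and 202 in mutants, so the groups overlapped in counts of the whole gene. On the TPM scale they did not, with 11.1 to 24.8 in controls and 4.88 to 8.16 in mutants, and the effective length assigned to *Prdm10* was 2565 to 3357 bases in controls and 4348 to 5051 in mutants.

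The V-ATPase is a rotary proton pump of lysosomes, endosomes, the Golgi and secretory vesicles. Its cytosolic V1 sector hydrolyses ATP, and its membrane V0 sector carries the protons through a ring of proteolipid subunits that turns against subunit a. The acidity it makes is needed for lysosomal enzymes, for receptor recycling and for the entry of many viruses, and the pump also takes part in amino acid sensing at the lysosome through the Ragulator complex and mTORC1. RNASEK is a small membrane protein that associates with the pump and is needed for endocytosis and for uptake of several viruses.

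*Rnasek* (ENSMUSG00000093989.1) lies on the minus strand of chromosome 11 from 70238124 to 70239842 (GRCm38). Its main transcript has 611 bases, of which 297 (bases 110 to 406, 98 codons before the stop) code for protein. The coding sequence is shown because the whole of it is shared with a second annotated gene, *Gm21988*, which affects how reads from it were counted. Start and stop codons are in capitals.

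Rnasek coding sequence: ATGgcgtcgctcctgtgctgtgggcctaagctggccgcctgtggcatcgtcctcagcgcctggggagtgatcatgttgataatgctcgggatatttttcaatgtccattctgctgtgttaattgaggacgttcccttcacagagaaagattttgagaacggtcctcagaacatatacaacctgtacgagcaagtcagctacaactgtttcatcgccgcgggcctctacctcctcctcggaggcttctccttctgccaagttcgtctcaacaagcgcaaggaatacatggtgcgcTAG

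*Gm21988* is annotated as a read-through gene spanning 70235206 to 70239830 on the same strand, which also covers *0610010K14Rik* (70235206 to 70237914), the gene 210 bases beyond the end of *Rnasek*. Bases 13 to 611 of the *Rnasek* transcript occur in *Gm21988*, so only its first 12 bases are its own. Over the 3 annotated *Rnasek* transcripts, 59.5% of 882 windows of 75 bases, the read length, also occurred in *Gm21988*. Among the other members, shared windows made up 9.24% of those of *Atp6v0c* (mostly with the pseudogene *Atp6v0c-ps2*), 7.56% of *Atp6v0a2*, 7.11% of *Atp6v0b*, and under 1% of *Atp6v1a* and *Atp6ap2*. *Atp6v0a1*, *Atp6v0d1*, *Atp6v0e* and *Atp6ap1* shared none.

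The letters searched for as a PRDM10 motif were taken from the study's designed gel shift probes, of which the mutated form differs from the wild-type form at the bases in capitals.

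PRDM10 probe WT: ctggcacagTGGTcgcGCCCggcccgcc

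PRDM10 probe MUT: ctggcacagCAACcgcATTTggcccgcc

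The capitals of the wild-type probe give the motif TGGTNNNGCCC, which was searched on both strands of RefSeq promoter windows (250 bases before to 50 after a start, GRCm38.p6). It occurred in 1.45% of 32851 windows, or at 1.69% of 27025 genes. Of the 10 members, 8 had a window and 1, *Atp6v0c*, held the motif. *Rnasek* and *Atp6v0a2* had no entry. Of all 38 V-ATPase genes listed, 27 had a window and 2 held it, the other being the assembly chaperone gene *Vma21*. In *Atp6v0c* the motif (capitals) lay 45 bases before an annotated start, in the stretch chr17:24169435-24169545, minus strand, shown here because it is the only match among the members.

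Atp6v0c promoter: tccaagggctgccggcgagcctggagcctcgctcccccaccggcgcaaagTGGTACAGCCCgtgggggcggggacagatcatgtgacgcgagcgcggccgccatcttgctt

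*Rnasek* was the member with the widest separation of the groups. Its normalised count (counts divided by a size factor of the library) was 284 to 634 in controls, with a median of 377. In the mutants it was 92.1, 95.3, 87.8, 68.6 and 74.5. Every mutant lay below every control, and the mutants lay close together, with a coefficient of variation of 13.8% against 30.1% in controls. Controls averaged 404 ± 122 (SD, n = 6) and mutants 83.7 ± 11.5 (SD, n = 5), a 4.83-fold difference of the means. The fitted log2 fold change was -2.28 ± 0.24 (SE), with batch as a term. These values chose the gene and are not a test of it. Among 10489 genes with a mean normalised count above 10, 0.639% had every mutant below every control.

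The low level in mutants was seen in both batches. In batch 1 the fitted log2 fold change of *Rnasek* was -2.54 ± 0.39 (SE), and in batch 2 it was -2.09 ± 0.31 (SE). On the TPM scale, which divides by gene length, controls ranged from 119 to 287 (median 158) and the mutants had 38.0, 37.8, 36.6, 35.0 and 34.2 TPM. The effective length that RSEM assigned to *Rnasek* averaged 511 ± 14.4 bases (SD) over the controls and 484 ± 13.0 (SD) over the mutants. Its part in the difference was not tested. In whole-embryo RNA, fewer cells that express a gene and less of its RNA per cell cannot be told apart.

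RSEM assigned some counts to the read-through gene, and their part in the difference of *Rnasek* was not tested. *Gm21988* had normalised counts of 17.4 to 61.9 (median 33.1) in controls and of 12.8, 9.91, 16.6, 25.6 and 17.6 in mutants. It was lower in mutants on average, with a fitted log2 fold change of -1.15 ± 0.44 (SE). *Gm21988* holds nearly all of the *Rnasek* sequence, so its counts are not independent of those of *Rnasek* and no test is given. The groups overlapped over all embryos but not within either batch, and the share of all genes with such a pattern was not counted. Of the counts given to either gene, *Gm21988* received 8.58% ± 3.15 (SD) in controls as against 16.8% ± 6.59 (SD) in mutants. With both genes' counts summed, controls ranged from 321 to 696 and mutants from 92.1 to 105, and the log2 fold change was -2.13.

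The flanking genes showed no such separation. *0610010K14Rik* had 224 to 470 normalised counts in controls (median 357) and 429, 463, 469, 452 and 369 in mutants, a log2 fold change of 0.30 ± 0.21 (SE, DESeq2 adjusted p = 0.609). *Alox12*, an arachidonate lipoxygenase gene 1615 bases from the other end of *Rnasek*, differed by -0.30 ± 0.24 (SE, DESeq2 adjusted p = 0.688). Summing *Rnasek*, *Gm21988* and *0610010K14Rik* gave a log2 fold change of -0.57, as the last gene, which is not lower in mutants, then supplies most of the mutants' counts.

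**Figure D1:**
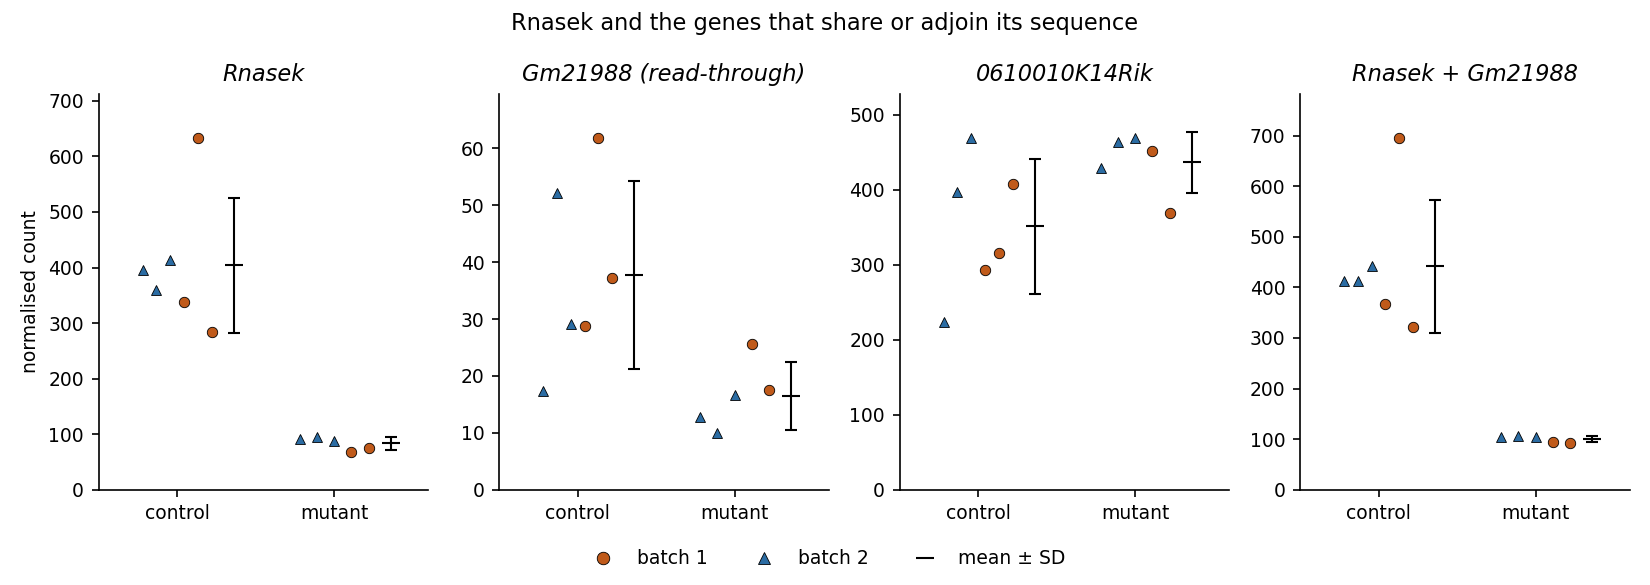
Normalised count (vertical axis, linear from 0, own scale in each panel) of *Rnasek*, the overlapping read-through gene *Gm21988*, the adjoining *0610010K14Rik*, and the sum of the first 2, in each control and mutant embryo. Circles are batch 1 and triangles batch 2, and the bars beside them are mean ± SD. *Rnasek* was 284 to 634 in controls and 68.6 to 95.3 in mutants, and *0610010K14Rik* overlapped between the groups.

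The genes whose levels followed *Rnasek* most closely across the 11 embryos, by Pearson correlation of log2(normalised count + 1) after removal of batch means, were *Tcp11l2* (r = 0.973), *Tardbp* (r = 0.973), which encodes an RNA-binding protein, *Eif3b* (r = 0.967), a subunit gene of the translation initiation factor eIF3, *Fam173b* (r = 0.964), and *Eef1d* (r = 0.964), which encodes a translation elongation factor subunit. The points share the split into mutants and controls, so these values mainly describe genes that were lower in mutants. *Eef1d* averaged 1955 ± 319 normalised counts (SD) over the controls and 282 ± 77.3 (SD) over the mutants. No V-ATPase member was among the nearest 5. Over the 10488 genes ranked, *Atp6v0a2* (r = 0.72) stood 199th, *Atp6v0c* (r = 0.71) 227th and *Atp6v0e* (r = 0.70) 238th, and *Atp6ap1* (r = -0.36) had the lowest value among the members.

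The V0 ring is built from proteolipid subunits. *Atp6v0c*, which encodes the main proteolipid, had normalised counts of 1751 to 2337 (median 1967) in controls. The mutants had 1429, 1547, 1128, 1792 and 1202. Of the 5 mutants, 4 lay below every control, and mutant replicate 4, of batch 1, lay within the control range. The log2 fold change was -0.47 ± 0.16 (SE). *Atp6v0b*, the second proteolipid gene, had 634 to 1648 (median 1054) in controls and 1233, 1047, 959, 1146 and 973 in mutants. All mutant values of *Atp6v0b* lay inside the control range, and its log2 fold change was -0.02 ± 0.21 (SE).

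Subunit a is the large membrane subunit through which protons pass, and its forms direct the pump to different membranes. *Atp6v0a2*, the form known from the Golgi, was the scarcest member. It had 47.5 to 112 (median 77.6) normalised counts in controls and 36.2, 34.3, 16.6, 78.9 and 46.6 in mutants. The groups did not overlap within either batch, but overlapped when the batches were pooled. How many of all genes separate in this way was not counted, so nothing is read from it. The log2 fold change was -0.89 ± 0.31 (SE). *Atp6v0a1* had 89.1 to 252 (median 125) in controls and 169, 67.1, 200, 198 and 176 in mutants, a log2 fold change of 0.19 ± 0.30 (SE). The groups overlapped in both batches for this form.

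Of the smaller V0 subunits, *Atp6v0e* encodes a short membrane subunit and *Atp6v0d1* encodes the subunit that couples the rotor to V1. *Atp6v0e* had 1655 to 3439 (median 2262) normalised counts in controls and 2334, 1945, 2221, 1610 and 1682 in mutants. The mutants of batch 2 lay below the controls of that batch, and the groups overlapped in batch 1, for a log2 fold change of -0.29 ± 0.14 (SE). *Atp6v0d1* had 819 to 1454 (median 965) in controls and 1457, 1155, 1175, 974 and 826 in mutants. The groups overlapped in both batches, with a log2 fold change of 0.03 ± 0.14 (SE).

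The V1 member, *Atp6v1a*, encodes the catalytic subunit that hydrolyses ATP. It had 181 to 895 (median 450) normalised counts in controls and 313, 353, 526, 527 and 384 in mutants. All mutants lay inside the control range, and the log2 fold change was 0.02 ± 0.27 (SE). The accessory proteins ATP6AP1 and ATP6AP2 (the prorenin receptor) assist assembly of the V0 sector, and both of their genes are X-linked. *Atp6ap1* had 353 to 2514 (median 1210) in controls and 1174, 1169, 744, 1786 and 2411 in mutants, with a log2 fold change of 0.17 ± 0.31 (SE). *Atp6ap2* had 1508 to 3976 (median 2561) in controls and 1211, 2064, 1085, 2602 and 2376 in mutants, with a log2 fold change of -0.47 ± 0.28 (SE). The coefficients of variation in controls, 60.1% for *Atp6ap1* and 37.0% for *Atp6ap2*, exceeded that of *Rnasek*.

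**Figure D2:**
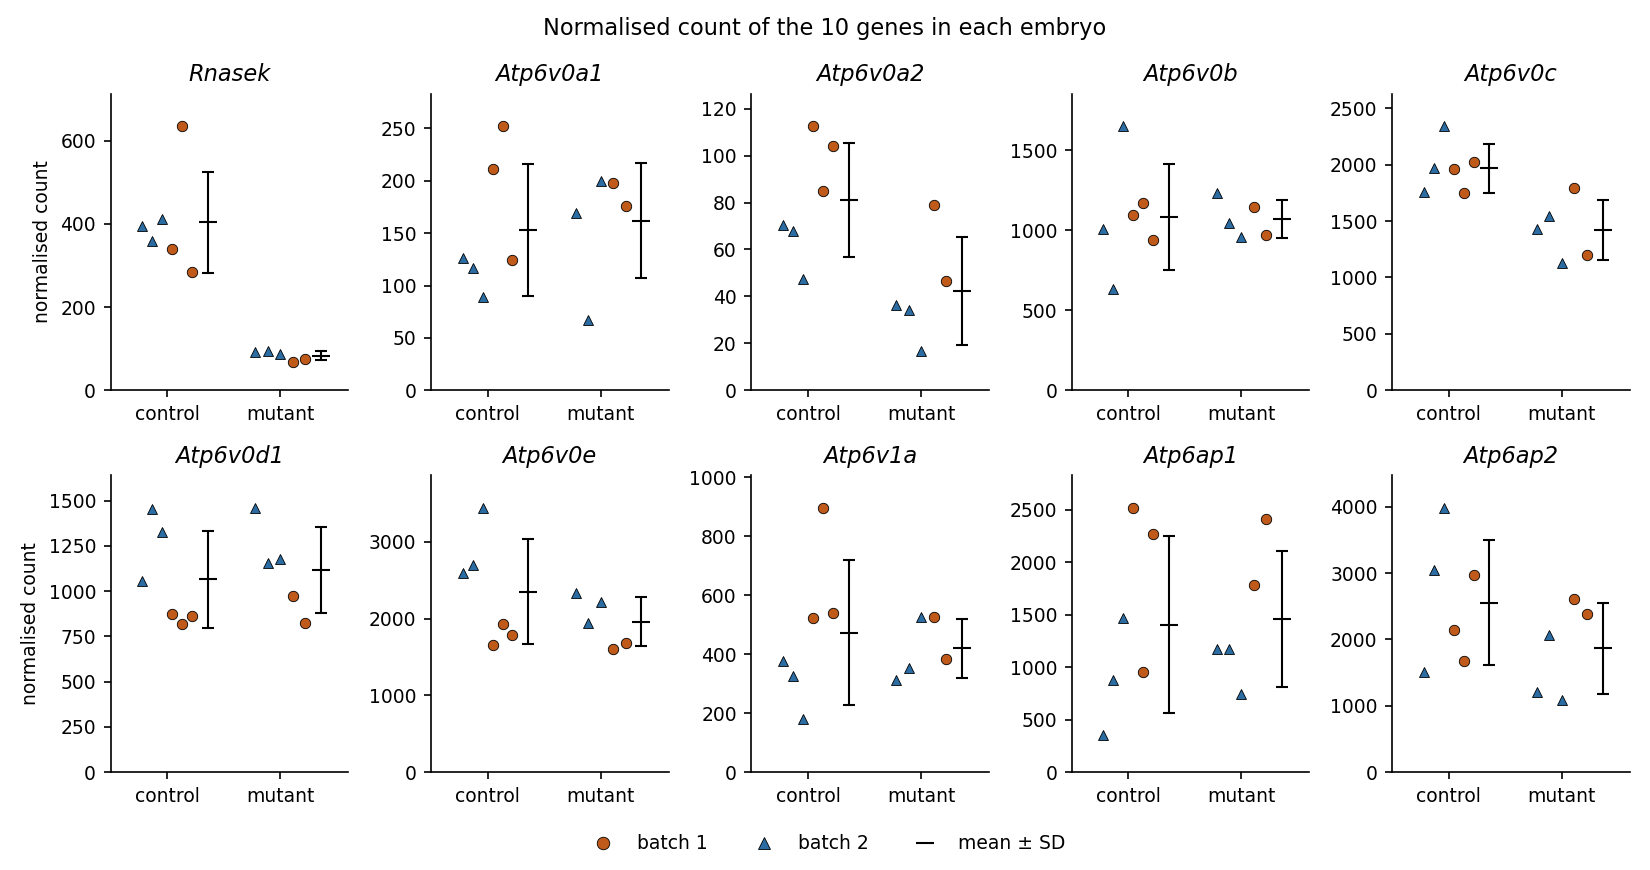
Normalised count (vertical axis, linear from 0, own scale in each panel) of the 10 genes in each control and mutant embryo. Circles are batch 1, triangles batch 2, and bars mean ± SD (n = 6 controls and 5 mutants). Only for *Rnasek* did every mutant lie below every control.

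The fitted differences of the 10 genes pointed both ways. By DESeq2 (adjusted p under 0.05 over all genes and mean normalised count above 10), 151 of 10448 genes were called between mutants and controls, or 1.45%, and 92, or 0.881%, were called lower in mutants. By edgeR 35 of 10489 genes were called, or 0.334%. In simulated data DESeq2 made more false calls between groups than its threshold names, and edgeR came closer to it, so calls made by DESeq2 alone are the less secure. Of the 10 members, 1 was called, *Rnasek*, for which the choice of the members allows no reading. Fitted log2 fold changes were below 0 for 6 members and above 0 for 4. Their median was -0.15, and the median over all genes tested was -0.001. Without any single embryo, the log2 fold change of *Rnasek* ranged from -2.35 to -2.10.

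The remaining V-ATPase genes, 28 in number, comprised V1 and V0 subunits, assembly factors, the rabconnectin complex and TLDc proteins. Of these, 19 had a mean normalised count above 10, and 0 were called between mutants and controls by DESeq2 or by edgeR. At an unadjusted p under 0.05 there were 2 by either tool, a share near that of all genes (11.9% by DESeq2 and 9.49% by edgeR). These were *Atp6v1d*, a rotor subunit of V1 (-0.47 ± 0.16, SE, DESeq2 adjusted p = 0.137), and *Dmxl2*, a rabconnectin gene (-0.83 ± 0.28, SE, DESeq2 adjusted p = 0.129). Without control replicate 2, *Atp6v1d* was called lower.

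Among V1 genes other than *Atp6v1a*, 7 of 8 tested had log2 fold changes below 0, from -0.70 (*Atp6v1c2*) upwards, with a median of -0.30, and none was called. Among genes with a mean normalised count above 10, the highest value in the V1 list was that of *Atp6v1a*, and in the V0 list that of *Atp6v0a4*, a form of subunit a known from kidney (0.53 ± 0.28, SE, DESeq2 adjusted p = 0.450). Among assembly and regulation genes, 5 of 9 were above 0 and 4 below, from *Dmxl2* to *Tbc1d24* (1.13 ± 0.79, SE, DESeq2 adjusted p = 0.626). *Tbc1d24* is also a neighbour of *Atp6v0c*, 5729 bases away, and *Amdhd2*, 100 bases from its other end, differed by 0.22 ± 0.42 (SE, DESeq2 adjusted p = 0.925).

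Genes that act with the pump at the lysosome were examined as a further list of 37, of which 34 had a mean normalised count above 10. By DESeq2 1 was called higher and 1 lower, and by edgeR 0 were called. At an unadjusted p under 0.05 there were 7 by DESeq2 and 5 by edgeR, beside the 11.9% and 9.49% of all genes. *Psap*, which encodes the precursor of the saposins that help degrade sphingolipids, rose with a log2 fold change of 0.71 ± 0.17 (SE, DESeq2 adjusted p = 0.0041, edgeR adjusted p = 0.0686). It had 781 to 2666 (median 1760) normalised counts in controls and 1755, 1761, 1568, 3862 and 4758 in mutants. Groups overlapped over all embryos, but within each batch every mutant lay above every control. The share of all genes separated within both batches, as here and for *Lamtor3* below, was not counted. The DESeq2 call of *Psap* was lost without mutant replicate 5.

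*Lamtor3*, a Ragulator subunit gene, fell by 0.54 on the log2 scale, with an SE of 0.16 and a DESeq2 adjusted p of 0.0497, just inside the threshold (edgeR adjusted p = 0.252). It had 298 to 544 (median 382) normalised counts in controls and 354, 261, 330, 253 and 211 in mutants, again without overlap within batches, and the DESeq2 call held without mutant replicate 4 but not without any 1 of the other 10 embryos. *Ctsb*, the gene of the protease cathepsin B, had the lowest value of the lysosome list (-0.76 ± 0.23, SE, DESeq2 adjusted p = 0.0608). It was called lower without mutant replicate 1, and when genes needed at least 10 counts in 5 libraries. In the nutrient sensing list the values ran from *Rragc* (-0.86 ± 0.43, SE, DESeq2 adjusted p = 0.425) to *Rragd* (0.43 ± 0.32, SE, DESeq2 adjusted p = 0.644), both Rag GTPase genes. *Rragc* was called lower in batch 1 alone. Over the 34 genes, 18 log2 fold changes were above 0 and 16 below, with a median of 0.06.

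**Figure D3:**
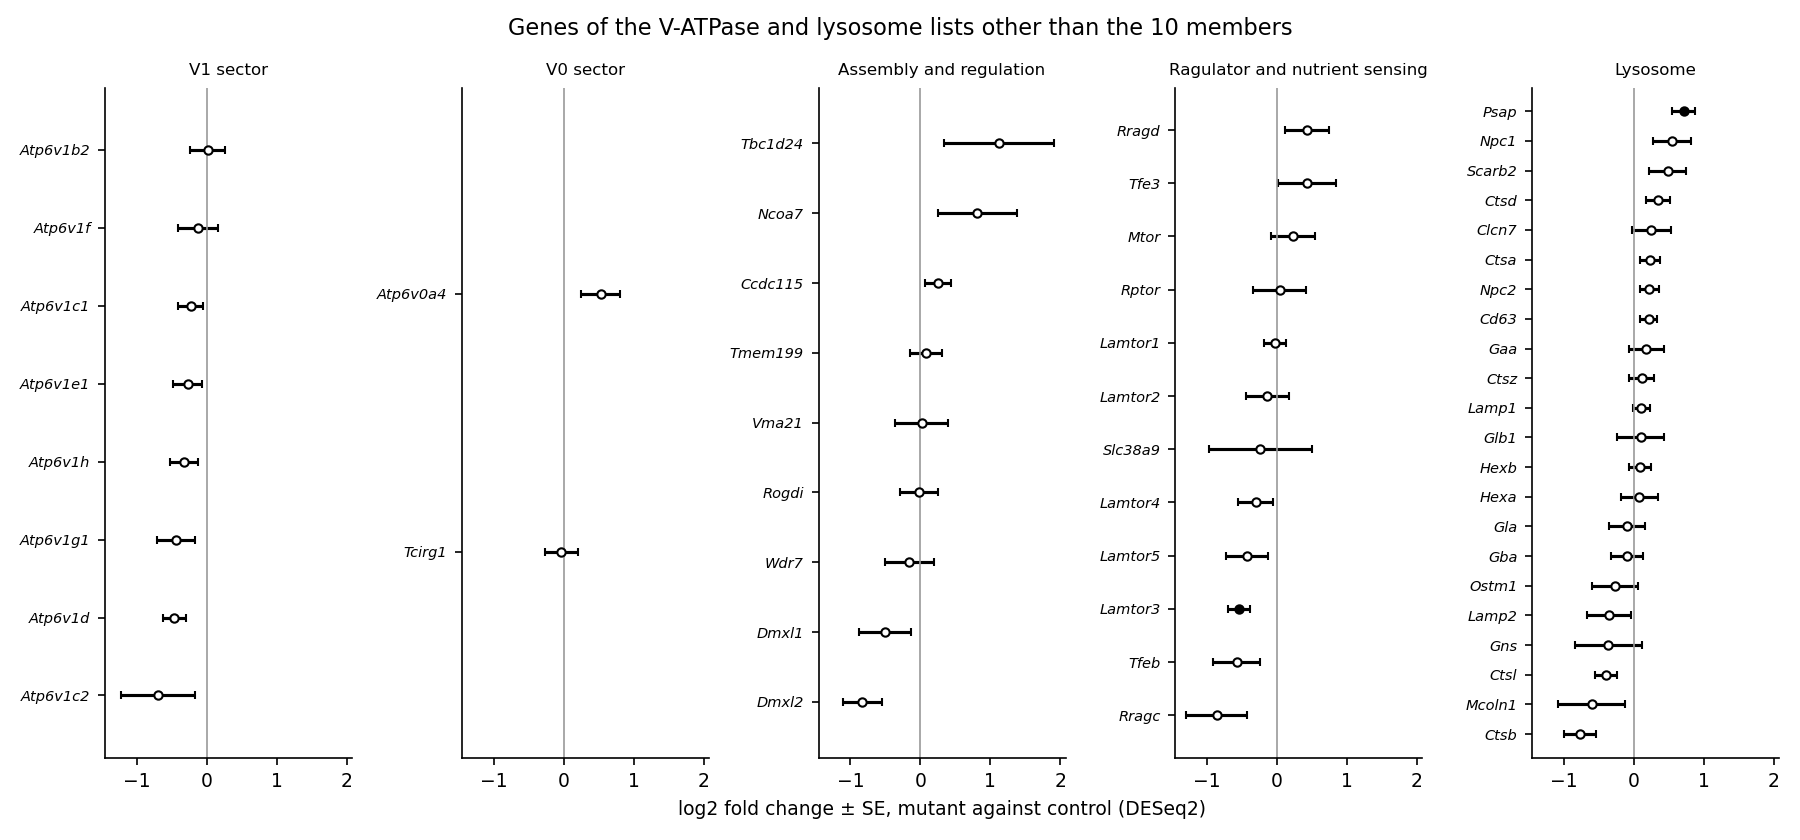
Log2 fold change of mutants against controls (horizontal axis, DESeq2, with bars of 1 SE) for genes of the V1, V0, assembly, nutrient sensing and lysosome lists other than the 10 members, with a mean normalised count above 10. Filled points were called (adjusted p under 0.05). *Psap* (0.71) and *Lamtor3* (-0.54) are filled, and no V-ATPase gene is.

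Several members differed between the library batches, a contrast on which their choice did not rest. By DESeq2, 27.9% of 10448 genes were called between batches, and of the 10 members 2 were higher and 3 lower in batch 2. By edgeR 22.7% of all genes were called, and 3 of the 10 members (*Atp6v0d1*, *Atp6v0e* and *Atp6ap1*). *Atp6v0e* had 1732 ± 127 (SD, n = 5) normalised counts in batch 1 and 2538 ± 516 (SD, n = 6) in batch 2 (log2 difference 0.57 ± 0.14, SE, DESeq2 adjusted p = 0.00051). *Atp6v0d1* had 871 ± 62.2 and 1270 ± 168 (0.54 ± 0.14, SE, DESeq2 adjusted p = 0.0014). Every value of *Atp6v0d1* in batch 1 was below every value in batch 2. On the TPM scale (limma on log2(TPM + 1)) the median batch difference of all genes was -0.20, with 593 genes called higher and 1911 lower against 1445 and 1466 by DESeq2, and *Atp6v0d1* was not called there.

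The accessory gene *Atp6ap1* went the other way, from 1987 ± 641 in batch 1 to 964 ± 392 in batch 2 (-1.06 ± 0.31, SE, DESeq2 adjusted p = 0.0053). *Atp6v0a2* (-0.88 ± 0.31, SE, DESeq2 adjusted p = 0.0244, edgeR adjusted p = 0.0638) and *Atp6v1a* (-0.73 ± 0.27, SE, DESeq2 adjusted p = 0.0335, edgeR adjusted p = 0.0652) were also lower in batch 2. The call of *Atp6v1a* was lost without any 1 of 8 embryos (control replicates 2, 3, 4, 5 and 6 and mutant replicates 1, 2 and 4), and that of *Atp6v0a2* without any 1 of 4 (control replicates 3, 4 and 6 and mutant replicate 4). *Rnasek* differed between batches by 0.09 ± 0.23 (SE, DESeq2 adjusted p = 0.834), *Atp6v0c* by -0.01 ± 0.16 (SE, DESeq2 adjusted p = 0.968) and *Atp6v0b* by 0.03 ± 0.21 (SE, DESeq2 adjusted p = 0.933). Oviduct epithelium markers also differed by batch, summing to 0 to 0.81 TPM in batch 1 and 1.59 to 31.9 TPM in batch 2. Nearly all of this was *Ovgp1*, the only 1 of these 3 markers with a mean normalised count above 10. Blood markers summed to 1.12 to 5.26 and 2.13 to 33.4 TPM. The part of both marker sets in the batch differences was not tested.

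The genotype effect was also set side by side in the 2 batches. This compares the same within-batch values that chose the members, so it is a description for them. The fitted difference (batch 2 minus batch 1) was 0.46 ± 0.48 (SE) for *Rnasek*, with a 95% interval from -0.49 to 1.41. The difference farthest from 0 among the members was that of *Atp6ap2*, -1.10 ± 0.51 (SE), which had fitted log2 fold changes of 0.14 ± 0.27 (SE) in batch 1 and -0.97 ± 0.35 (SE) in batch 2. *Atp6v1a* followed with 0.94 ± 0.50 (SE). By DESeq2, 4 of 10472 genes were called for such a difference, or 0.0382%, and 0 of the 10 members were. At an unadjusted p under 0.05 there was 1 member by DESeq2 and 1 by edgeR, beside 4.3% and 3.23% of all genes. Nothing is read from these counts here.

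**Figure D4:**
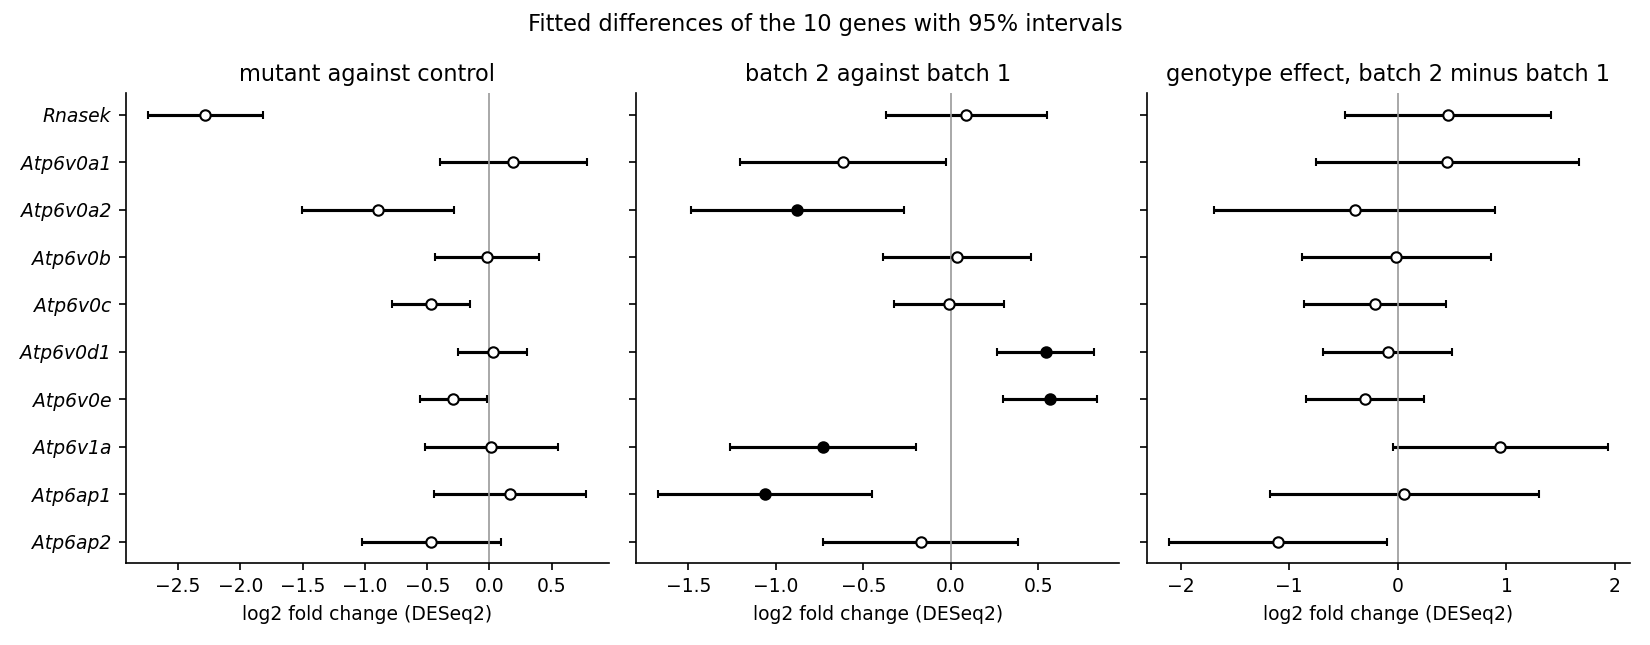
Fitted log2 differences of the 10 genes (horizontal axes, DESeq2, with 95% intervals) for mutants against controls, batch 2 against batch 1, and the genotype effect in batch 2 minus that in batch 1. Filled points were called (adjusted p under 0.05), and the panels of genotype effects carry no test, because the genes were chosen on the values behind them. *Rnasek* stands at -2.28 in the first panel, and 5 genes are filled in the second.

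The levels of the members relative to each other were compared in TPM, which corrects for gene length. In controls the order was *Atp6v0e* (685 ± 141 TPM, SD, n = 6), *Atp6v0c* (384 ± 41.2), *Atp6v0b* (311 ± 89.0), *Atp6ap2* (241 ± 75.2), *Rnasek* (171 ± 59.4), *Atp6ap1* (152 ± 99.1), *Atp6v0d1* (146 ± 27.9), *Atp6v1a* (26.1 ± 15.3), *Atp6v0a1* (24.0 ± 5.09) and *Atp6v0a2* (7.41 ± 3.65). *Atp6v0e* was above *Atp6v0c*, *Atp6v0d1* above *Atp6v1a*, and *Atp6v0a1* above *Atp6v0a2* in 6 of 6 controls. All other neighbours in this order changed places in at least 2 of the 6. In mutants, at 36.3 ± 1.66 TPM (SD, n = 5), *Rnasek* stood 7th in place of 5th, below *Atp6ap1* and *Atp6v0d1*. *Atp6v0b* and *Atp6v0c* also changed places there.

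Alternative forms of a subunit, the pair of proteolipid genes and the pair of accessory genes were compared within each embryo by the difference in log2(TPM + 1), with an exact two-sided sign-flip permutation test over the 11 embryos and adjustment over 11 pairs (smallest possible p = 9.77e-04). A single form predominated for 6 subunits. *Atp6v0d1* averaged 148 TPM, and *Atp6v0d2*, a form known from osteoclasts, was listed at 0 in every embryo. *Atp6v0e* averaged 632 TPM, and *Atp6v0e2* 0.0909. *Atp6v1e1* averaged 216 TPM, and *Atp6v1e2*, a testis form, was listed at 0 in every embryo. *Atp6v1b2* averaged 64.2 TPM, and *Atp6v1b1*, the form of kidney and inner ear, 0.0736. *Atp6v1g1* averaged 45.4 TPM, and the neuronal form *Atp6v1g2* 0.487. *Atp6v1c1* averaged 130.0 TPM and *Atp6v1c2* 6.01. Each of these 6 pairs had the same form higher in 11 of 11 embryos. For *Atp6v1c1* and *Atp6v1c2* the exact permutation test gave an adjusted p of 0.0013, and for the other 5 pairs, with 1 form at or near 0, the test can hardly give another value and is not used.

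Subunit a was different, with several forms present. *Tcirg1*, the a3 form known from lysosomes and osteoclasts, averaged 44.7 ± 28.2 TPM (SD, n = 11), *Atp6v0a1* 22.8 ± 8.60 and *Atp6v0a2* 5.26 ± 3.83. The fourth form, *Atp6v0a4*, was not among the pairs tested, and averaged 20.9 ± 12.8 TPM, with 10.2 ± 5.31 (SD, n = 5) in batch 1 and 29.8 ± 9.84 (SD, n = 6) in batch 2. In counts, *Atp6v0a4* was not called between batches (0.56 ± 0.28, SE, DESeq2 adjusted p = 0.133). It was called higher in batch 2 by DESeq2 with effective length as an offset or without mutant replicate 5, and by limma on TPM. *Tcirg1* averaged 70.1 ± 21.5 TPM (SD, n = 5) in batch 1 and 23.5 ± 5.69 (SD, n = 6) in batch 2, so in TPM the form with the highest mean was *Tcirg1* in batch 1 and *Atp6v0a4* in batch 2. *Atp6v0a1* exceeded *Atp6v0a2* in 11 of 11 embryos, by 2.06 ± 0.98 on the log2 scale (SD, exact permutation test, adjusted p = 0.0013). *Tcirg1* exceeded *Atp6v0a2* in 11 of 11 embryos (exact permutation test, adjusted p = 0.0013) and *Atp6v0a1* in 8 of 11 (by 0.82 ± 0.92, SD, exact permutation test, adjusted p = 0.0204). The order of *Tcirg1* and *Atp6v0a1* held in 5 of 5 embryos of batch 1 and in only 3 of 6 of batch 2. *Tcirg1* was also the V0 gene with the largest batch difference (-1.99 ± 0.24, SE, DESeq2 adjusted p = 1.95e-14), with 501 ± 126 normalised counts (SD, n = 5) in batch 1 and 126 ± 28.2 (SD, n = 6) in batch 2. Effective lengths assigned to *Atp6v0a1* ranged from 936 to 2548 bases and those of *Atp6v0a2* from 1505 to 5271 bases between embryos. Those of *Atp6v0a4* were 2695 to 3226 bases in batch 1 and 1026 to 1637 in batch 2, and those of *Tcirg1* 1589 to 1747 and 843 to 1386. These lengths enter the TPM, and so the order of the forms, but not the counts.

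The proteolipid genes had overlapping levels, *Atp6v0b* at 308 ± 68.8 TPM (SD, n = 11) and *Atp6v0c* at 339 ± 72.2. *Atp6v0c* was higher in 6 of 11 embryos, of which 4 were controls. The difference of -0.14 ± 0.40 on the log2 scale (*Atp6v0b* minus *Atp6v0c*, SD) was within the spread between embryos (exact permutation test, adjusted p = 0.287). This test pooled the groups, and in mutants *Atp6v0b* had the higher mean. *Atp6ap2* exceeded *Atp6ap1* in 8 of 11 embryos (213 ± 79.7 against 152 ± 86.0 TPM, SD, n = 11, exact permutation test, adjusted p = 0.0191), comprising 3 of 5 embryos in batch 1 and 5 of 6 in batch 2.

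**Figure D5:**
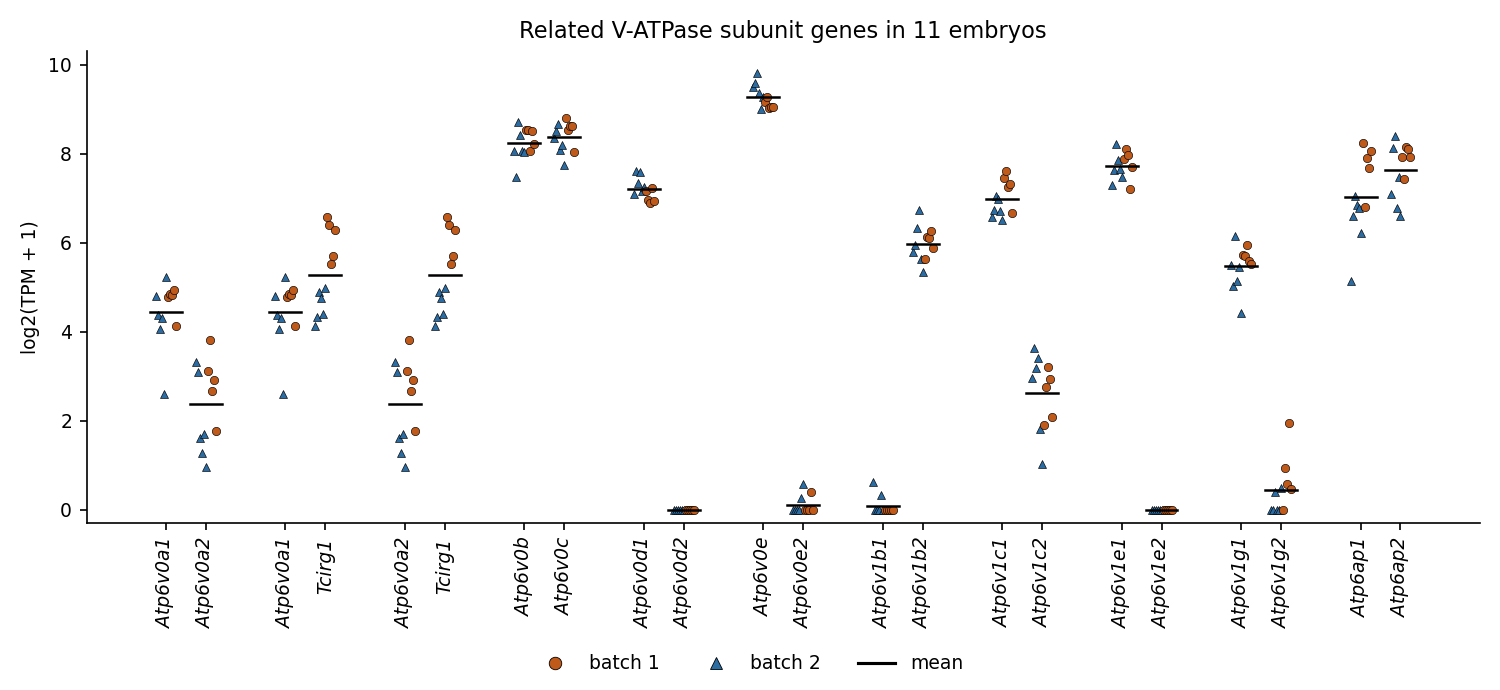
Level in log2(TPM + 1) (vertical axis) of the 2 genes of each pair of related subunits in the 11 embryos, with circles for batch 1, triangles for batch 2, and a line at the mean. *Atp6v0d2* and *Atp6v1e2* lie at 0 in every embryo, the forms of subunit a lie between these extremes, and *Atp6v0b* and *Atp6v0c* overlap.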

How the data were processed

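Libraries were made by the study with Smart-seq2 and Nextera XT and read as 75-base single-end reads, without strand or molecular identifiers. The authors aligned reads to GRCm38.p6 with STAR (2.6.0c) and counted genes with RSEM on GENCODE M18. The deposited values per gene and embryo are the RSEM expected count (a read that matches several genes is split between them), the TPM, and the effective length. The authors' comparison table was not used. Symbols and coordinates came from GENCODE M21 of the same build.

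Expected counts were rounded and fitted with DESeq2 (1.42.0, Wald test, R 4.3.3) over all genes. DESeq2 is the study's tool, and the model with batch and group as terms was chosen here. Called genes had a mean normalised count above 10 and a Benjamini-Hochberg adjusted p under 0.05. edgeR (4.0.16, quasi-likelihood) was run beside it. Related subunits were compared with exact sign-flip permutation tests. Fits were tested on simulated data, where DESeq2 made more false calls than its threshold names. Intervals cover the spread between embryos, and counting error was not separated from it. No 2 libraries of the same group agreed within sampling noise.

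The 10 members and all lists were chosen with earlier results of these data known. The text names the members, the paired genes, list genes called between groups or with the largest rise or fall of a list, neighbours of *Rnasek* and *Atp6v0c*, the 5 genes most like *Rnasek*, and *Prdm10*. *Vma21*, *Atp6v1d*, *Atp6v0c-ps2*, *Atp6v0a4* in the comparison of forms, and the marker genes were named after their values were seen. Alternatives were other tests, normalizations, filters, offsets, batches alone and leaving out each embryo.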

Additional observations from a re-analysis of the deposited data

Results flagged for a closer look

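The normalised counts of the 10 members, *Gm21988* and *0610010K14Rik* were screened for embryos far from the rest of their group (Dixon's test at the 95% level, 24 groups of 5 or 6 embryos), and 2 embryos stood apart, where chance flags about 1 in 20 groups. *Rnasek* in control replicate 5 was 634, and the other 5 controls had 284 to 413. Without that embryo the log2 fold change of *Rnasek* was -2.10. *Atp6v0a1* in mutant replicate 2 was 67.1, and the other 4 mutants had 169 to 200.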

How the results depend on the processing

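No paired analysis was possible because the labels carry no replicate numbers that tie embryos of the groups together. For *Rnasek* the log2 fold change of -2.28 stayed below 0 under every alternative (lowest -2.54, in batch 1 alone). It moved to -0.57 only when the counts of *Gm21988* and *0610010K14Rik* were added, by construction, and to -2.13 with *Gm21988* alone. Leaving out each embryo gave -2.35 to -2.10. Among other V-ATPase genes the count called was 0, and 0 to 1 when leaving out each embryo. For the Ragulator, nutrient sensing and lysosome genes the count of 2 became 0 with edgeR, limma on log2(TPM + 1) or log2(TPM + 0.1), no batch term, or batch 2 alone, 1 with TMM factors or the effective-length offset, and 0 to 2 when leaving out each embryo. The 5 members called between batches became 3 with edgeR and both limma fits, 2 in controls alone and 2 in mutants alone (of these only 1, *Atp6ap1*, was among the 5), and 3 to 5 when leaving out each embryo. No member was called for the interaction under any alternative. Of the 11 pairs of related subunits 10 were called (10 to 10 when leaving out each embryo), but 5 of these had a form at or near 0 and could hardly fail, so this count says little. It was 5 of the 6 pairs with a mean TPM above 1 in both genes, and 8 in batch 2 alone. In controls alone it was also 8, and *Tcirg1* with *Atp6v0a1* and *Atp6ap1* with *Atp6ap2* were not called there. It was 0 in batch 1 alone, where 5 embryos allow no p under 0.0625. No pair changed direction under any of these alternatives. Over all genes, 59 were called higher and 92 lower in mutants by DESeq2, against 8 and 27 by edgeR and 1 and 21 by limma on log2(TPM + 1). The cause of the other changes was not tested. *Atp6v0a2*, *Gm21988* and *Tbc1d24* had few counts, and the part of depth in their spread was not tested.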
